A study of Homo sapiens with 10 samples.

Results

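The IGF-binding proteins and the IGF receptors form a group of 9 human genes, IGFBP1 to IGFBP7, IGF1R and IGF2R. Members were taken as the probe sets that the platform annotation assigns to each of these genes, with the probe set of the highest mean over all arrays used where a gene had several. Of the 9 genes, 8 were measured alone among the 18279 genes measured in the series. The only probe set of IGFBP6 is also annotated to C12orf57, so IGFBP6 has no value here. IGF1R had 2 probe sets.

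Transcripts of cultured human cells were measured on 10 Affymetrix arrays of total RNA, in 4 groups that differ in their response to discodermolide, a microtubule-stabilising drug first isolated from a marine sponge. AD32 4E-BP1 cells (1 array) were kept in 0.01% DMSO, are labelled sensitive and are named for 4E-BP1, the product of EIF4EBP1, which holds back eIF4E and with it translation from capped mRNA. AD32 cells (3 arrays) are labelled resistant and were grown in 32 nM discodermolide. A549 cells, an established lung adenocarcinoma line, received 32 nM discodermolide (2 arrays, labelled senescent) or 0.01% DMSO (4 arrays, labelled sensitive). AD32 and A549 in DMSO differ in both line and drug, as do AD32 4E-BP1 and AD32 in both construct and drug, and these cannot be told apart. Numbered samples are labelled biological replicates, with no word on separate cultures, so p-values measure the spread between these samples.

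Insulin-like growth factors signal through IGF1R, a receptor tyrosine kinase that feeds the PI3K-AKT pathway. IGF2R, the cation-independent mannose 6-phosphate receptor, carries no kinase: it clears IGF2 from the cell surface and sorts lysosomal enzymes. The IGF-binding proteins are secreted, hold IGFs away from IGF1R or deliver them to it, and are cleaved by proteases that free the ligand. Several of them are known among the proteins that senescent cells secrete.

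All levels are log2 signals as deposited, where 1 unit is a doubling of signal, and they were not compared between genes because each probe set responds differently. Differences are log2 differences between group means, and adjusted p-values are from limma with Benjamini-Hochberg adjustment over all genes and a threshold of 0.05. EIF4EBP1, the gene named in 1 line, was at 11.61 in AD32 4E-BP1, at 7.99 to 8.94 in AD32, at 9.58 and 9.76 in A549 with discodermolide and at 9.47 to 10.23 in A549 with DMSO. The epithelial keratins KRT8 and KRT18 were high, with KRT8 at 12.67 to 13.73. The keratin KRT19, at 5.715 to 6.276, lay below the median of every array. EPCAM lay between 3.30 and 3.87, under the lower quartile of every array (4.77 to 4.94). Lung type II and airway markers averaged 5.45 to 5.95. Fibroblast, endothelial and leukocyte markers averaged 5.21 to 5.60, 4.60 to 5.05 and 5.24 to 6.30. Of them, 0 were called in any comparison, where 0% to 5.72% of all genes were called. These means cover unlike genes. The leukocyte marker CD68, at 8.34 to 10.71, and the fibroblast marker COL1A1, at 7.69 to 8.16, lay above the median of every array. CDH1, the epithelial cadherin, was higher in AD32 than in A549 with DMSO by 1.11 (adjusted p = 0.0357 in limma). It was 1 of 5 epithelial markers, where 3.52% of all genes were called higher. CDH1 was also high in A549 with discodermolide, at 10.01 and 9.67, against 9.81 to 10.40 in AD32. The discodermolide arrays were at 0.92 against DMSO (adjusted p = 0.276). The CDH1 call was not tried under the alternative settings. The mean of 10 dividing-cell markers was 10.36 in AD32 4E-BP1, 5.25, 6.52 and 10.13 in AD32 replicates 1 to 3, 7.09 and 7.34 in A549 with discodermolide, and 7.24, 10.41, 10.48 and 10.46 in A549 DMSO replicates 1 to 4. AD32 replicate 3 and A549 DMSO replicate 1 therefore stood apart from the other arrays of their groups on these markers. A549 DMSO replicates 3 and 4 were closer to each other than any other pair, with a standard deviation of 0.16 between them across genes against at least 0.219 for the other pairs.

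IGFBP4 was lower in AD32 than in either A549 group, and no other member passed the threshold in any comparison. For AD32 against A549 with DMSO, 0 of 8 members were called higher and 1 lower, where 3.52% of all genes were called higher and 2.19% lower. For AD32 against A549 with discodermolide the counts were again 0 higher and 1 lower, against 1.28% and 2.46% of all genes. For A549 with discodermolide against DMSO, limma called 0 of 8 members, where 0.35% of all genes were called higher and 0.0219% lower. An unadjusted p under 0.05 was found for 1 member, and for 2033 of all genes (11.1%). For AD32 4E-BP1 against AD32, 0 were called, where 0.339% of all genes were called higher and 0.58% lower, and an unadjusted p under 0.05 was found for 2 members and 1730 of all genes (9.46%). For AD32 4E-BP1 against A549 with DMSO, limma called 0 members and 0% of all genes, with 0 members and 208 genes at an unadjusted p under 0.05. A single call among 8 genes was not read as particular to them. AD32 enters 3 of these comparisons and A549 in DMSO enters 3, so they share arrays.

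**Figure D1:**
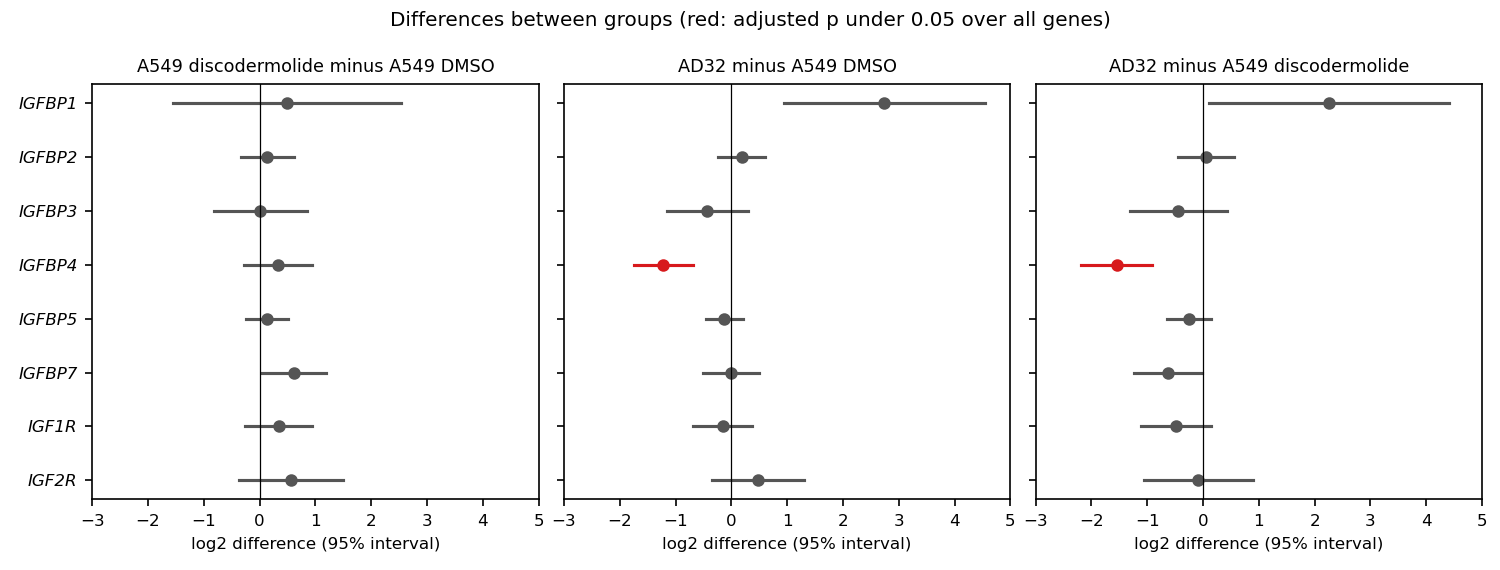
Log2 differences of the 8 measured genes in the comparisons between groups of at least 2 arrays, with 95% intervals from limma; genes run down the page and red marks an adjusted p under 0.05. IGFBP4 is called in both comparisons of AD32, at -1.22 against A549 with DMSO and -1.55 against A549 with discodermolide, and IGFBP1 has the widest intervals.

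IGFBP4 binds both IGFs, is mostly inhibitory and is the main substrate of the protease PAPP-A. Its level was 11.86 in AD32 4E-BP1, 10.71, 10.04 and 11.18 in AD32, 12.22 and 12.17 in A549 with discodermolide, and 12.06, 11.70, 11.83 and 11.86 in A549 with DMSO. Every AD32 array lay below every array of the other groups. All AD32 arrays were below all A549 DMSO arrays in 6.48% of all genes, and below both discodermolide arrays in 18%. The latter held for 3 of the 8 members. The AD32 mean was 10.65 ± 0.57 (SD, n = 3), against 11.86 ± 0.15 (SD, n = 4) in A549 with DMSO. The difference was -1.22 (SE 0.24, 95% interval -1.75 to -0.68), a 2.32-fold lower signal with an adjusted p of 0.0189 in limma. Against A549 with discodermolide, at 12.19 ± 0.04 (SD, n = 2), it was -1.55 (SE 0.28, 95% interval -2.19 to -0.91), a 2.93-fold lower signal with an adjusted p of 0.0197 in limma. In these RNA pools, fewer cells with the transcript and less of it per cell cannot be told apart.

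The IGFBP4 calls lie close to the threshold. Against A549 with DMSO the adjusted p in limma was 0.0631 when AD32 replicate 1 was left out, 0.0582 and 0.0617 when DMSO replicate 3 or 4 was, and 0.0599 with those 2 arrays averaged. It ranged from 0.00103 to 0.0631 over all 17 alternatives, with differences from -1.48 to -0.92. Against A549 with discodermolide it was 0.0564 without AD32 replicate 1, 0.158 and 0.15 without discodermolide replicate 1 or 2, and 0.0835 with only those 2 groups fitted, within a range of 0.000857 to 0.158 and differences from -1.82 to -1.25. AD32 replicate 3 had a dividing-cell marker mean of 10.13 and an IGFBP4 level of 11.18, the highest of the 3 AD32 arrays. A549 DMSO replicate 1 had a marker mean of 7.24 and an IGFBP4 level of 12.06. The part of these markers in the IGFBP4 difference was not tested.

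IGFBP1, a binding protein best known from liver and decidua, is induced by FOXO factors and repressed by insulin. Its level was 7.28 in AD32 4E-BP1, 11.48, 11.35 and 7.77 in AD32, 7.83 and 8.07 in A549 with discodermolide, and 8.22, 7.17, 7.16 and 7.27 in A549 with DMSO. AD32 replicates 1 and 2 were far above every other array, while replicate 3 lay among the A549 arrays, so the groups overlapped. Its range over the 10 arrays, 4.33, was wider than that of 99.3% of genes. The AD32 mean of 10.20 ± 2.11 (SD, n = 3) exceeded that of A549 with DMSO, 7.46 ± 0.51 (SD, n = 4), by 2.74 (SE 0.80, 95% interval 0.95 to 4.54), with an adjusted p of 0.085 in limma. Against A549 with discodermolide, at 7.95 ± 0.18 (SD, n = 2), the difference was 2.25 (SE 0.95) with an adjusted p of 0.29.

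One library decided these IGFBP1 results. Without AD32 replicate 3 the difference was 3.96 (SE 0.30) against A549 with DMSO and 3.47 (SE 0.34) against A549 with discodermolide, with adjusted p-values of 0.000144 and 0.000974 in limma. The adjusted p against A549 with DMSO ranged from 0.000144 to 0.292 over 17 alternatives. It was also under the threshold with array weights (0.00137 in limma), where AD32 replicate 3 had a weight of 0.339. The arrays with high IGFBP1 were those with the lowest dividing-cell markers, at 5.25 and 6.52. MKI67, the proliferation antigen, was at 5.51, 5.87 and 9.93 in the 3 AD32 arrays. The part of the markers in the IGFBP1 difference was not tested.

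**Figure D2:**
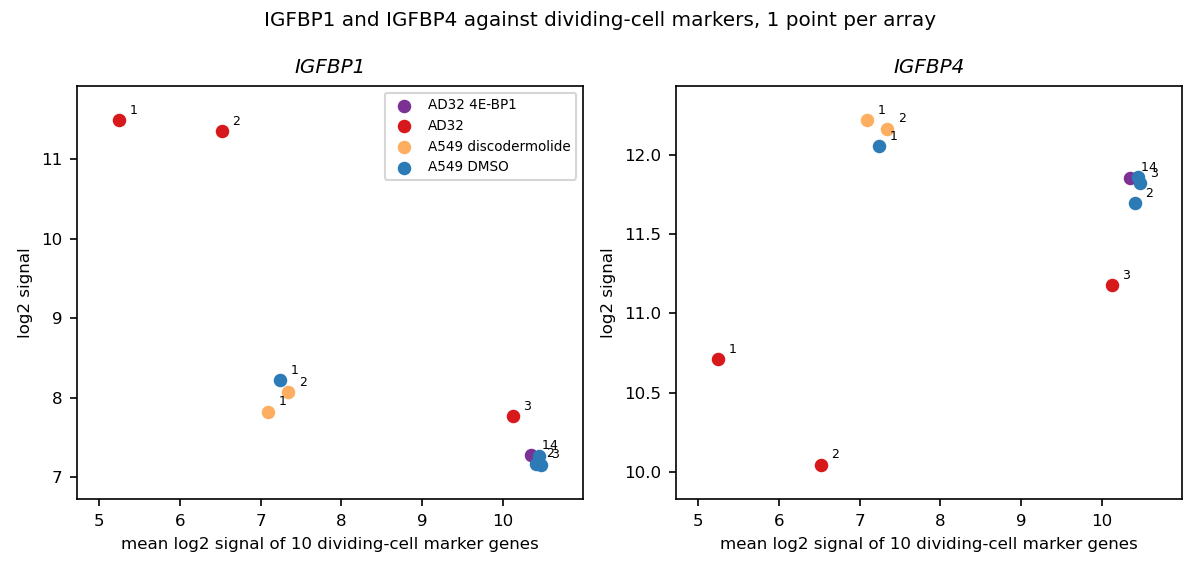
Log2 level of IGFBP1 and of IGFBP4 on the vertical axes against the mean log2 level of 10 dividing-cell markers on the horizontal axis, 1 point per array, numbered by replicate and coloured by group. AD32 replicates 1 and 2 hold the highest IGFBP1 levels (11.48 and 11.35) at the lowest marker means (5.25 and 6.52), and all 3 AD32 arrays hold the lowest IGFBP4 levels.

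IGFBP3, the main carrier of IGFs in blood, lies next to IGFBP1 on chromosome 7, with 0 protein-coding genes between them in the GRCh38.p14 gene table. Its level was 9.86 in AD32 4E-BP1, 9.86, 9.69 and 8.97 in AD32, 9.86 and 10.04 in A549 with discodermolide, and 10.79, 9.80, 9.61 and 9.55 in A549 with DMSO. The high AD32 values of its neighbour were not seen here, and the highest IGFBP3 level was that of A549 DMSO replicate 1. AD32 differed from A549 with DMSO by -0.43 (95% interval -1.16 to 0.30, adjusted p = 0.555 in limma). All AD32 arrays were below (replicate 1 only just) those of A549 with discodermolide, at a difference of -0.45 (adjusted p = 0.721).

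IGFBP7 binds IGFs weakly and is known as a protein secreted in senescence. Its level was 7.94 in AD32 4E-BP1, 7.49, 7.90 and 7.48 in AD32, 8.30 and 8.20 in A549 with discodermolide, and 7.40, 7.18, 8.04 and 7.92 in A549 with DMSO. The 2 discodermolide arrays were the highest of all. They exceeded A549 with DMSO by 0.62 (SE 0.25, 95% interval 0.05 to 1.19), the only member with an unadjusted p under 0.05 in that comparison, and did not pass after adjustment (adjusted p = 0.407 in limma). AD32 was at -0.63 against A549 with discodermolide (adjusted p = 0.295) and at -0.01 against A549 with DMSO (adjusted p = 0.993).

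IGFBP2 and IGFBP5, neighbours on chromosome 2 with 0 protein-coding genes between them, varied least. IGFBP2, which carries an integrin-binding motif, was at 8.38 in AD32 4E-BP1, 8.46, 8.59 and 8.45 in AD32, 8.82 and 8.08 in A549 with discodermolide, and 8.52, 8.11, 8.25 and 8.37 in A549 with DMSO. The 2 discodermolide arrays of IGFBP2 were its highest and its lowest values over all arrays. IGFBP5, a binding protein of bone and extracellular matrix, stayed between 4.62 and 5.10 on all arrays, near their lower quartiles, and was read only as low. Its range of 0.481 was wider than that of 15.6% of genes, and that of IGFBP2, 0.745, than that of 42.2%. In the 5 comparisons tested, differences were at most 0.25 in size for both genes, and 0 of them passed the threshold.

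IGF1R, the signalling receptor, was at 10.33 in AD32 4E-BP1, 9.40, 9.40 and 10.16 in AD32, 10.32 and 9.98 in A549 with discodermolide, and 9.47, 10.16, 9.81 and 9.80 in A549 with DMSO. AD32 was at -0.15 against A549 with DMSO (95% interval -0.68 to 0.37) and at -0.49 against A549 with discodermolide (95% interval -1.12 to 0.14), with adjusted p-values of 0.816 and 0.482 in limma. A549 with discodermolide was at 0.34 against DMSO (adjusted p = 0.722). The second IGF1R probe set, not used in the tests, read 9.32 in AD32 4E-BP1, 8.73 to 9.07 in AD32, 9.38 and 9.45 in A549 with discodermolide and 8.83 to 9.15 in A549 with DMSO. In A549 both discodermolide arrays lay above every DMSO array on the second probe set. On the first they overlapped the DMSO arrays only through DMSO replicate 2, at 10.16. Among the AD32 arrays, replicate 3 was highest on the first probe set and replicate 2 on the second.

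IGF2R, the clearance receptor, was at 9.63 in AD32 4E-BP1, 9.76, 10.53 and 9.14 in AD32, 10.28 and 9.50 in A549 with discodermolide, and 9.83, 9.60, 8.91 and 8.97 in A549 with DMSO. Arrays of each group spread widely and overlapped. Differences were 0.56 for A549 with discodermolide against DMSO (adjusted p = 0.698 in limma), 0.48 for AD32 against A549 with DMSO (adjusted p = 0.561) and -0.08 for AD32 against A549 with discodermolide (adjusted p = 0.972). The mannose 6-phosphate sorting genes, which serve the same lysosomal route, gave 0 calls of 10 in each of these comparisons. Of all genes, 0.35% were called higher and 0.0219% lower in the first, 3.52% and 2.19% in the second, and 1.28% and 2.46% in the third.

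**Figure D3:**
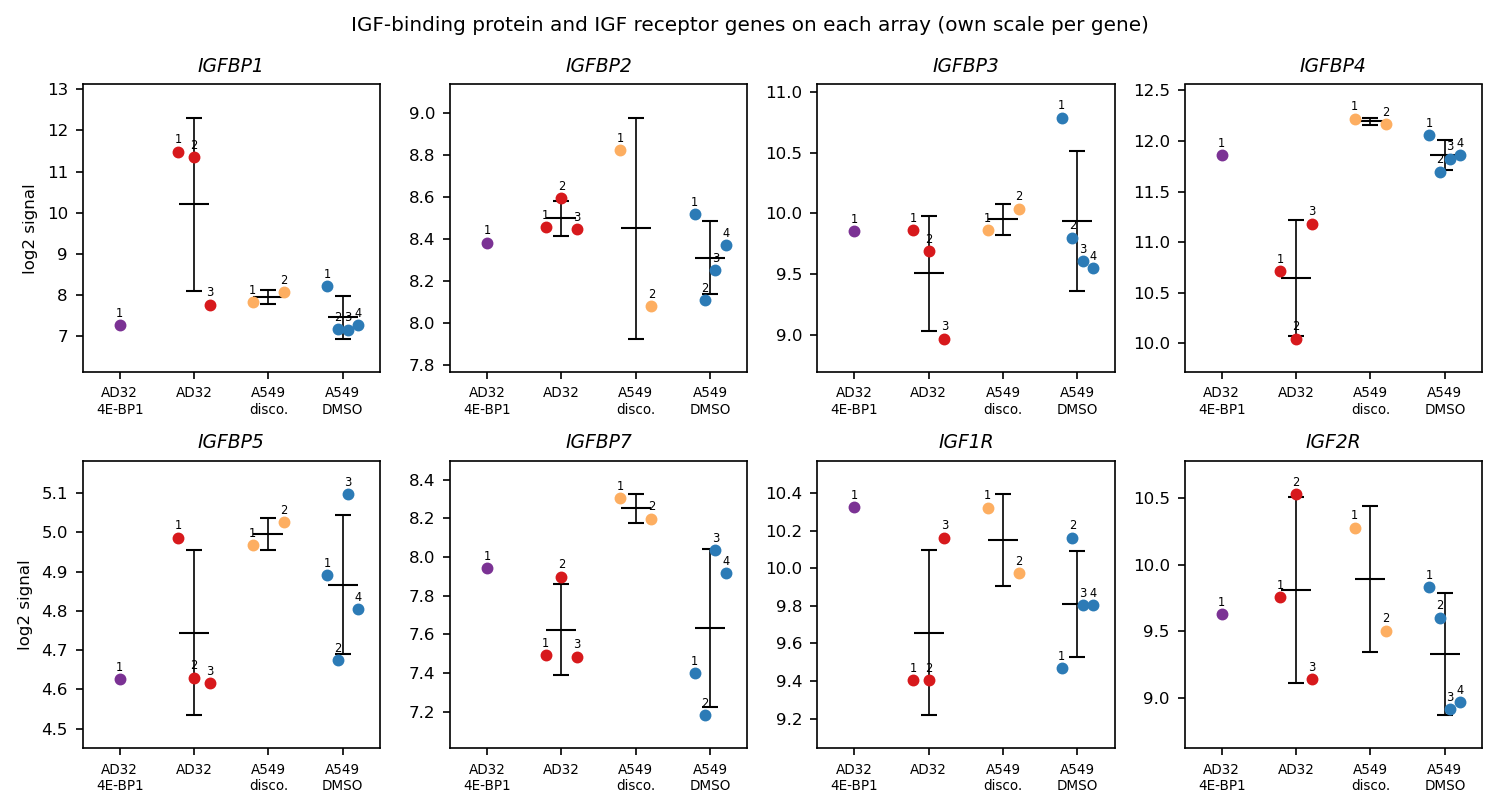
Log2 level of each of the 8 measured genes on each array, 1 panel per gene with its own vertical scale; points are arrays numbered by replicate, and bars give the mean ± SD of groups with over 1 array. IGFBP4 separates the 3 AD32 arrays (10.04 to 11.18) from the rest, and IGFBP1 sets AD32 replicates 1 and 2 apart from replicate 3.

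In A549 with discodermolide, 8 of 8 members had a mean above that of DMSO, as did 54% of all genes, with a median difference of 0.34 where the median over all genes was 0.02. The differences ran from 0.01 for IGFBP3 to 0.62 for IGFBP7, and 0 passed the threshold. The signs were not stable: IGFBP1 and IGFBP3 were at -0.27 and -0.36 with the replicate number as a block, IGFBP2 was at -0.23 without discodermolide replicate 1, and IGFBP3 was also below 0 with median centring or quantile normalization. Both discodermolide arrays exceeded all DMSO arrays for IGFBP4, at 0.33 (adjusted p = 0.738 in limma), and for IGFBP7, as they did in 15.2% of all genes. The median for AD32 was -0.07 against A549 with DMSO, where all genes had 0.01, and -0.35 against A549 with discodermolide.

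The lone AD32 4E-BP1 array stood near A549 in DMSO for most members. This nearness was not particular to the members. Across all genes the array was nearest to A549 DMSO replicate 2, with a standard deviation of 0.219 between them. Between DMSO replicates 2 and 3 it was 0.312. IGFBP4 in AD32 4E-BP1 differed from A549 in DMSO by -0.00 (95% interval -0.79 to 0.78) and IGFBP1 by -0.18 (95% interval -2.81 to 2.45). IGF1R was above all 4 DMSO arrays, at a difference of 0.52 (adjusted p = 0.9997 in limma). Against AD32, IGFBP4 was at 1.21 (SE 0.36, adjusted p = 0.244), IGFBP1 at -2.93 (SE 1.20, adjusted p = 0.483) and IGF1R at 0.67 (adjusted p = 0.631), all from 1 array assumed to vary like the other groups. Without AD32 replicate 3 the IGFBP4 and IGFBP1 differences were 1.48 and -4.14. The dividing-cell marker mean was 10.13 in that array and 10.36 in AD32 4E-BP1. In AD32 replicates 1 and 2, which remained, it was 5.25 and 6.52. The part of these markers in the 2 differences was not tested.

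Of 6 genes for IGF and insulin ligands, insulin receptors and the acid-labile subunit, IGF1, IGFALS, INSR and INSRR were measured alone. They gave 0 calls in every comparison, where 0% to 5.72% of all genes were called. The ligand genes IGF2 and INS were not measured alone, which leaves IGF1 as the only ligand with a value. IGF1 lay between 3.82 and 4.52 on all arrays, below their lower quartiles. INSR, the insulin receptor, was at 0.64 in AD32 against A549 with DMSO (adjusted p = 0.271 in limma).

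Proteases that cleave IGF-binding proteins, with their inhibitors, were 11 genes and all were measured. In AD32 against A549 with discodermolide 3 were called lower and 0 higher, where 1.28% of all genes were called higher and 2.46% lower. In 8 of 11 every AD32 array was below both discodermolide arrays, as in 18% of all genes, and the median difference was -0.998 where all genes had 0.01. PAPPA, which encodes the IGFBP4-cleaving protease PAPP-A, was at 9.40 in AD32 4E-BP1, 7.995, 8.82 and 8.18 in AD32, 10.90 and 10.39 in A549 with discodermolide, and 9.85, 8.53, 8.81 and 8.89 in A549 with DMSO. PAPPA was thus highest in the discodermolide arrays, as IGFBP4 was. The difference between AD32 and A549 with discodermolide was -2.31, a 4.97-fold lower signal (adjusted p = 0.0138 in limma). It missed the threshold without AD32 replicate 1 (0.0509), without discodermolide replicate 1 or 2 (0.148 and 0.0803) and with the replicate number as a block (0.0531).

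PAPPA2, a related protease that cleaves IGFBP3 and IGFBP5, was at 5.06 in AD32 4E-BP1, 5.90, 5.59 and 4.69 in AD32, 7.79 and 7.11 in A549 with discodermolide, and 6.03, 5.16, 5.32 and 5.49 in A549 with DMSO. The lowest AD32 level lay under the lower quartile of every array, so fold differences of PAPPA2 need not equal ratios of transcripts. AD32 was 4.16-fold lower than A549 with discodermolide (adjusted p = 0.0213 in limma), a call lost without AD32 replicate 2 (0.0514), without discodermolide replicate 1 or 2 (0.206 and 0.0865) and with only these groups fitted (0.0641). ADAM12, a metalloprotease of IGFBP3 and IGFBP5, was at 7.10 in AD32 4E-BP1, 5.48, 5.57 and 5.75 in AD32, 6.86 and 6.55 in A549 with discodermolide, and 6.08, 6.47, 6.42 and 6.31 in A549 with DMSO. The AD32 arrays were the 3 lowest. All AD32 arrays were below all A549 DMSO arrays in 6.48% of all genes. ADAM12 in AD32 was 1.65-fold lower than in A549 with DMSO (adjusted p = 0.0218, lost in 7 of 17 alternatives) and 2.15-fold lower than in A549 with discodermolide (adjusted p = 0.0103, lost without discodermolide replicate 1 or 2, at 0.124 and 0.055). The first of these ADAM12 calls was lost without AD32 replicate 1 or 2 (adjusted p 0.0865 and 0.0815 in limma). It was lost without A549 DMSO replicate 2, 3 or 4 (0.0606, 0.0747 and 0.0709). It was also lost with DMSO replicates 3 and 4 averaged (0.0704) and with the replicate number as a block (0.0809).

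MMP7, the metalloprotease matrilysin, was at 4.60 in AD32 4E-BP1, 6.54, 7.12 and 7.48 in AD32, 5.52 and 6.65 in A549 with discodermolide, and 5.07, 4.67, 4.62 and 4.50 in A549 with DMSO. MMP7 was called higher and ADAM12 lower in AD32 than in A549 with DMSO, 1 gene of the list each, against 3.52% and 2.19% of all genes. MMP7 was 5.04-fold higher (adjusted p = 0.00312 in limma), a call kept in all 16 alternatives that gave a value. The DMSO levels lie near the lower quartile, so this fold need not equal a ratio of transcripts. In AD32 4E-BP1, a single array whose spread is taken from the groups with replicates, ADAM12 was higher than in AD32 (1.499, adjusted p = 0.0154) and MMP7 lower (-2.44, adjusted p = 0.04998, lost in 7 of 15 alternatives). That MMP7 call was lost when AD32 replicate 2 or DMSO replicate 2, 3 or 4 was left out. It was also lost with DMSO replicates 3 and 4 averaged and with quantile normalization. Both the ADAM12 and the MMP7 call were lost with only AD32 4E-BP1 and AD32 fitted.

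In A549 with discodermolide against DMSO 11 of 11 genes of the list had a mean above that of DMSO, as did 54% of all genes, with a median of 1.02 where all genes had 0.02. Limma called 0 of them, where 0.35% of all genes were called higher. An unadjusted p under 0.05 was found for 7 of the 11, and for 11.1% of all genes. In 7 of the 11 both discodermolide arrays exceeded all DMSO arrays, as they did in 15.2% of all genes. STC1, which encodes the PAPP-A inhibitor stanniocalcin, was at 5.77 in AD32 4E-BP1, 7.57, 6.92 and 5.24 in AD32, 8.22 and 8.47 in A549 with discodermolide, and 7.13, 5.70, 5.45 and 5.32 in A549 with DMSO. It had the largest difference of the list between discodermolide and DMSO, 2.44 (SE 0.65, adjusted p = 0.188 in limma). PAPPA was at 1.62 (adjusted p = 0.122), PAPPA2 at 1.95 (adjusted p = 0.0682) and MMP7 at 1.37 (adjusted p = 0.164). A549 DMSO replicate 1 was the highest of its group for STC1, PAPPA, PAPPA2 and MMP7.

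**Figure D4:**
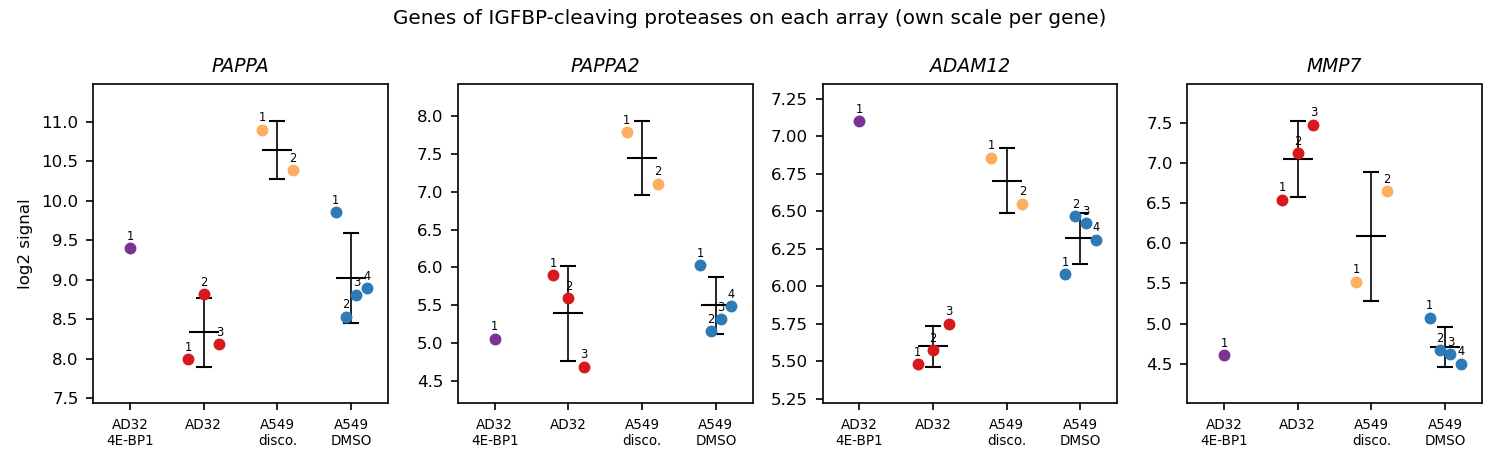
Log2 level of PAPPA, PAPPA2, ADAM12 and MMP7 on each array, 1 panel per gene with its own vertical scale; points are arrays numbered by replicate and bars give the mean ± SD of groups with over 1 array. The discodermolide arrays are highest for PAPPA (10.90 and 10.39) and PAPPA2 (7.79 and 7.11), and the AD32 arrays are lowest for ADAM12.

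Among 10 IGFBP-related proteins, CCN3, a secreted matrix protein of the CCN family, was called higher in AD32 than in either A549 group and 0 were lower, against 3.52% higher and 2.19% lower of all genes with DMSO as the other group and 1.28% and 2.46% with discodermolide. It was at 6.11 in AD32 4E-BP1, 8.0, 7.75 and 7.24 in AD32, 6.11 and 6.13 in A549 with discodermolide, and 6.43, 6.19, 6.19 and 5.84 in A549 with DMSO. Every AD32 array exceeded every other array. All AD32 arrays were above all A549 DMSO arrays in 8.9% of all genes, and above both discodermolide arrays in 14.4%. CCN3 in AD32 was 2.83-fold higher than in A549 with DMSO (adjusted p = 0.00363 in limma, kept in all 17 alternatives) and 2.91-fold higher than in A549 with discodermolide (adjusted p = 0.01, lost without discodermolide replicate 1 or 2, at 0.0956 and 0.098).

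Downstream of the receptor, 15 of 19 adaptor and PI3K-AKT genes were measured. Of these, 2 were called lower and 0 called higher in AD32 than in A549 with DMSO, against 2.19% and 3.52% of all genes. PIK3CB, a catalytic subunit of PI3K, was at 9.42 in AD32 4E-BP1, 8.63, 8.54 and 8.64 in AD32, 9.04 and 9.11 in A549 with discodermolide, and 9.30, 9.46, 9.67 and 9.57 in A549 with DMSO. Its AD32 arrays were the lowest of all, 1.86-fold below A549 with DMSO (adjusted p = 0.0041 in limma, kept in all 17 alternatives). All AD32 arrays were below all A549 DMSO arrays in 6.48% of all genes. GRB14, an adaptor that inhibits insulin receptor signalling, was 3.11-fold lower (adjusted p = 0.0232, lost in 7 of 17 alternatives). The GRB14 call was lost without AD32 replicate 1 or 2 (adjusted p 0.0913 and 0.103 in limma). It was lost without A549 DMSO replicate 2, 3 or 4 (0.0573, 0.0564 and 0.0604). It was also lost with DMSO replicates 3 and 4 averaged (0.0585) and with the replicate number as a block (0.067). The other comparisons gave 0 calls in this list, where 0% to 3.74% of all genes were called.

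Of 13 measured FOXO factors and FOXO-induced genes, SESN1 and SESN3, which encode stress-induced sestrins, were called higher in AD32 than in A549 with DMSO. None was called lower, against 3.52% higher and 2.19% lower of all genes. A higher mean in AD32 was found for 8 of the 13, and for 51.8% of all genes. PDK4 went the other way, at -1.79 (adjusted p = 0.158 in limma). Every AD32 array was below every A549 DMSO array for PDK4, as in 6.48% of all genes. SESN1 was at 7.45 in AD32 4E-BP1, 8.93, 9.66 and 8.59 in AD32, 9.24 and 9.32 in A549 with discodermolide, and 6.93, 7.18, 7.76 and 7.52 in A549 with DMSO. Both drug-exposed groups were above both DMSO groups for SESN1. SESN1 differed from A549 with DMSO by 1.72 in AD32 (adjusted p = 0.00771 in limma, kept in all 17 alternatives) and by 1.94 in A549 with discodermolide (adjusted p = 0.0423, lost in 10 of 17). SESN3 differed by 2.19 in AD32 (adjusted p = 0.0208, lost in 5 of 17) and by 0.02 in A549 with discodermolide (adjusted p = 0.995). In AD32 4E-BP1, a single array whose spread is taken from the groups with replicates, SESN3 differed from AD32 by -3.71 (adjusted p = 0.04, lost in 8 of 16). The SESN1 call in A549 with discodermolide was lost without DMSO replicate 2, 3 or 4 (adjusted p 0.117, 0.0884 and 0.123 in limma) and without AD32 replicate 1 (0.073). It was lost with DMSO replicates 3 and 4 averaged (0.0994) and with the replicate number as a block (0.224). Median centring (0.0597) and quantile normalization (0.0553) also removed it. Without discodermolide replicate 1 or 2, leaving a single array, the call was lost at differences of 1.97 and 1.90. The SESN3 call against A549 with DMSO was lost without AD32 replicate 1 or 2 (adjusted p 0.0611 and 0.0933 in limma). It was also lost without DMSO replicate 3 or 4 (0.0564 and 0.0624) and with those 2 DMSO arrays averaged (0.0599). The SESN3 call of AD32 4E-BP1 was lost without AD32 replicate 1 or 2, without DMSO replicate 2 or 4 and without either discodermolide array. It was also lost with DMSO replicates 3 and 4 averaged and with only AD32 4E-BP1 and AD32 fitted.

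IGF2 mRNA-binding proteins (3 genes) and the integrins that bind IGF-binding proteins with an RGD motif (4 genes) gave 0 calls in every comparison. Of all genes, 0% to 5.72% were called. All 4 integrins had a lower mean in AD32 than in either A549 group. Of all genes, 51.8% had a higher mean in AD32 against DMSO and 50.7% against discodermolide. The integrin medians were -0.38 and -0.55, where all genes had 0.01 and 0.005.

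Across the 10 arrays, the levels most like those of IGFBP4 among 9138 genes above the median level were those of ZNF512 (r = 0.98), CA12 (r = 0.972) and PDGFD (r = 0.97). The most opposite were SP1 (r = -0.976), KANSL2 (r = -0.975) and KBTBD2 (r = -0.971). These correlations describe arrays that fall into groups, with AD32 low for IGFBP4, and carry no test.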

How the data were processed

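The deposited values are log2 signals of 24308 probe sets on 10 arrays, which the authors derived in Affymetrix Expression Console according to the submitters' processing notes. The software version, the summarisation and the normalization were not given in the sources used here. The log2 scale was judged from the values. There is no detection call, and the number of arrays limits the precision. The platform annotation gave 1 gene for 19262 probe sets, several for 1720 and none for 3326, and probe sets with several or none were left out.

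Tests used limma 3.58.1 in R 4.3.3 (lmFit, contrasts.fit, eBayes) with 4 group means over all 10 arrays, two-sided, with Benjamini-Hochberg adjustment over 18279 genes. Figures used matplotlib 3.10.9 in Python 3.11.15. The scripts were tested on simulated data. The members and lists were chosen with earlier results of these data known. Genes named were all members, EIF4EBP1, MKI67, IGF1, IGF2, INSR, up to 4 genes per list and comparison with the smallest p past the threshold, and the 3 genes most and least like each called member. Other genes and values were named after their values were seen.

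Tried as alternatives were array weights, averaging A549 DMSO replicates 3 and 4, averaging probe sets per gene, fitting only the arrays compared, leaving out the lowest 33.3% of genes, centring on medians, quantile normalization, the replicate number as a block, and leaving out each replicate. Replicate numbers were not used as pairs in the main fit. By their deviations from group means, 1 of 3 AD32 arrays was most like the A549 DMSO array of its own number. With so few arrays, this check cannot exclude a pairing.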

Additional observations from a re-analysis of the deposited data

Results flagged for a closer look

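Among 22 named genes looked at in the 4 A549 DMSO arrays, 2 had 1 array far from the others by Dixon's ratio at the 95% critical value, a level at which some genes pass by chance. IGFBP1 was at 8.22 in A549 DMSO replicate 1, with the nearest other array at 7.27 (ratio 0.893). EIF4EBP1 was at 10.23 in the same array, with the nearest other at 9.52 (ratio 0.934). The keratins KRT8 and KRT18 were not among the 22 genes. KRT8 was at 12.67 in that array and at 13.31 to 13.34 in the others of its group, and KRT18 at 13.03 and at 13.6 to 13.7. A549 DMSO replicate 1 also had the lowest dividing-cell markers of its group, at 7.24, and the part of these markers in any of these values was not tested.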

How the results depend on the processing

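Counts of members called moved under some settings. With array weights they were 1 for A549 discodermolide against DMSO (IGF2R, 0.87, adjusted p = 0.0311 in limma), 2 for AD32 against each A549 group and 2 for AD32 4E-BP1 against AD32. The weights were 4.637 and 2.925 for A549 DMSO replicates 4 and 3, the closest pair of arrays, and 0.184 for DMSO replicate 1. Over all genes, array weights gave 4573 calls for A549 discodermolide against DMSO, where the main fit gave 68. AD32 against A549 with DMSO gave 0 members with DMSO replicates 3 and 4 averaged. AD32 against A549 with discodermolide gave 0 with only those groups fitted. Leaving out each replicate gave 0 to 2 for each comparison with AD32 and 0 for the others. The causes were not tested beyond the fewer arrays. The replicate block kept 0, 1 and 1 calls, with IGFBP4 at -1.22 (adjusted p = 0.0415 in limma) and -1.68 (adjusted p = 0.0315), and was not possible for AD32 4E-BP1. Same-numbered deviations correlated at 0.677, -0.264 and 0.411 for AD32 and A549 DMSO, and 1 of 3 AD32 arrays correlated best with its own number. Over all genes, calls ranged from 4 to 4573 for A549 discodermolide against DMSO (68 as reported), 512 to 4215 for AD32 against A549 DMSO (1045), 132 to 1869 for AD32 against A549 discodermolide (683), 13 to 1282 for AD32 4E-BP1 against AD32 (168) and 0 to 3 against A549 DMSO (0). No called value changed sign. IGFBP5 has no value under the low filter.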
